A study of Homo sapiens with 36 samples.

Results

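The CTCF peaks mapped after knockdown of CHD3 were set against those mapped after knockdown of CHD5, in 2 peak lists of HEK293T, a line derived from human embryonic kidney. All peaks of the siCHD3 list (34319) and of the siCHD5 list (31451) on chromosomes 1 to 22 and X entered, 65770 of the 179333 peaks in the 6 lists of the series. A peak was called shared when it overlapped a peak of the other list by at least 1 bp and specific when it overlapped none, whether or not the control list (siNC, a control small interfering RNA) held it. Each list came from 3 chromatin immunoprecipitates with an anti-CTCF antibody, called together by the authors, from HEK293T transfected with siCHD3 or with siCHD5. The other 4 lists, from cells given siNC, siCHD4, siMBD2 or siMBD3, were used only to see whether a peak recurred. Inputs were sequenced for every condition, and the series held 36 samples in 12 groups of 3. With 1 list per condition, no spread between replicates could be measured, so every difference below is between 2 lists and no test between conditions was made. Intervals are exact Clopper-Pearson 95% intervals and cover counting error only. How far CHD3 or CHD5 was depleted was not analysed here.

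CTCF is a zinc-finger protein that binds a long DNA motif, blocks enhancers at insulators and, with cohesin, anchors chromatin loops. CHD3 and CHD5 are paralogous ATP-dependent chromatin remodellers. Either can serve, in place of CHD4, as the helicase of NuRD, a complex that couples nucleosome remodelling to the removal of histone acetyl groups. CHD3 is broadly expressed, whereas CHD5 is known mainly from neurons and testis. Nucleosomes and CTCF compete for the same DNA, so the work of a remodeller can bear on where CTCF sits.

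The lists differed in build before any overlap was taken. The siCHD3 list held 2868 more peaks than the siCHD5 list, although its coverage was lower. Background coverage, the expected number of fragments over a base without enrichment, was solved from the fold and p of each peak. Its smallest value, a stand-in for the depth of the pooled reads, was 0.445 in siCHD3 and 1.95 in siCHD5, a ratio of 4.39. The median width was 279 bp in siCHD3 and 300 bp in siCHD5. Peaks over 1 kb numbered 937 in siCHD3 and 39 in siCHD5, and the widest peaks measured 7207 and 2583 bp. The highest fold enrichment, the authors' ratio of signal to local background at the summit, was 207 in siCHD3 and 31.2 in siCHD5. Since each list is 1 condition, coverage and knockdown cannot be told apart.

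A large share of each list had no counterpart in the other. Of the 34319 siCHD3 peaks, 13900 were specific (40.5%, interval 39.98 to 41.02). Of the 31451 siCHD5 peaks, 10957 were specific (34.8%, interval 34.3 to 35.4). The shared peaks were 20419 in the siCHD3 list and 20494 in the siCHD5 list, and joined into 20401 of 45258 merged regions (45.1%). Few specific peaks were near misses: 568 siCHD3-specific peaks (4.09%) and 366 siCHD5-specific peaks (3.34%) had a peak of the other list within 1 kb. Counted in bases, 5.42 Mb were covered by both lists. The siCHD3 list covered another 6.53 Mb (54.6% of its length) and the siCHD5 list another 4.33 Mb (44.4%). Which list held more specific peaks depended on the threshold. Only peaks with a −log10 q of 10 or more were then kept in both lists. Of these, 3761 of 14169 siCHD3 peaks (26.5%) and 14983 of 25409 siCHD5 peaks (59.0%) were specific, but this cut also removes partners. With only the counted list held to 10, 3050 of 14169 siCHD3 peaks (21.5%) and 6984 of 25409 siCHD5 peaks (27.5%) were specific.

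Where both lists held a peak, they placed it at nearly the same base. The median distance from a shared siCHD3 summit to the nearest siCHD5 summit was 11 bp, 75.6% of these summits lay within 20 bp and 97.7% within 100 bp. Shared peaks were wider in siCHD5 in 67.3% of 20512 overlapping pairs, with median widths of 274 bp in siCHD3 and 321 bp in siCHD5. Overlap was nearly always 1 to 1. Only 85 siCHD3 peaks spanned 2 or more siCHD5 peaks, and 18 siCHD5 peaks spanned 2 or more siCHD3 peaks. The extreme case lay on chromosome 13 from 77558974 to 77562640, where 1 siCHD3 peak of 3667 bp with 7 summits (fold 60.8) covered 4 siCHD5 peaks, the strongest of fold 5.32. On chromosome 16 from 2811602 to 2817071 a siCHD3 peak of 5470 bp with 12 summits covered 3 siCHD5 peaks.

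Shared position did not mean shared rank. Across the 20512 pairs the Spearman correlation of fold was 0.20, and the Pearson correlation of log2 fold was 0.10. Summit pileup, the number of fragments over the summit, gave a Spearman correlation of 0.64, and local background gave 0.80. The points of each pair share a site, and these correlations describe 2 pooled lists over sites, not replicates. For comparison, the Spearman correlation of fold was 0.45 over 19629 siCHD3 and siCHD4 pairs, 0.39 over 28513 siCHD5 and siNC pairs and 0.18 over 23432 siCHD3 and siNC pairs. For siCHD3 it was 0.15 with siMBD2 and 0.20 with siMBD3. For siCHD5 it was 0.35 with siMBD2, 0.25 with siMBD3 and 0.19 with siCHD4. The strongest 10% of each list overlapped in part: 426 of 3432 such siCHD3 peaks (12.4%, interval 11.3 to 13.6) overlapped a peak in the strongest 10% of siCHD5, and 427 of 3145 such siCHD5 peaks (13.6%, interval 12.4 to 14.8) had the reverse. Over all peaks of each list these shares were lower: 2663 siCHD3 peaks (7.76%) overlapped the strongest 10% of siCHD5, and 1859 siCHD5 peaks (5.91%) overlapped the strongest 10% of siCHD3.

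**Figure D1:**
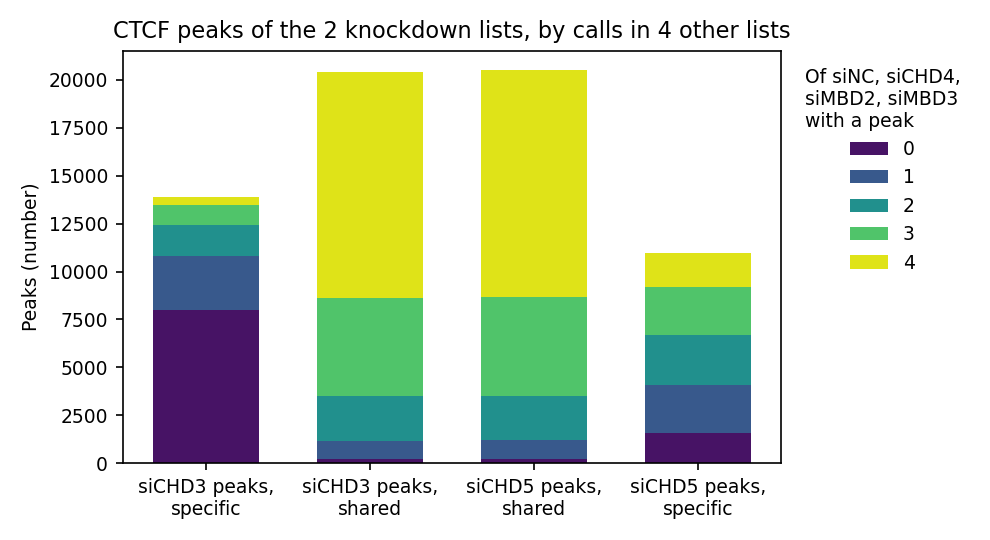
Number of peaks (vertical axis) that were specific or shared in the siCHD3 and siCHD5 lists, coloured by how many of the other 4 lists (siNC, siCHD4, siMBD2, siMBD3) held an overlapping peak. Of the siCHD3-specific peaks 8010 were in none of the 4, against 1581 of the siCHD5-specific peaks, while 11810 of the shared siCHD3 peaks were in all 4. Over all peaks, 24.0% of siCHD3 and 5.70% of siCHD5 peaks were in none of the 4.

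The specific peaks of the lists recurred differently in the other 4 lists. Those lists did not define shared and specific, but recurrence is not independent of the split. Only 9.41% of siCHD5 peaks lacked a siNC peak, so removing siCHD5 partners from siCHD3 also removes control sites. In the lists as deposited, the larger number of siCHD3-specific peaks was called in no other condition: 8010 of 13900 (57.6%, interval 56.8 to 58.4) overlapped no peak of siNC, siCHD4, siMBD2 or siMBD3. For siCHD5-specific peaks this was 1581 of 10957 (14.4%, interval 13.8 to 15.1). The whole lists differed in the same direction. Over all peaks, 8220 of 34319 in siCHD3 (24.0%) and 1792 of 31451 in siCHD5 (5.70%) were in none of the 4. The siCHD3-specific share fell below 50% at each stricter threshold tried. It was 26.2% (1676 of 6395) with both lists held to a −log10 q of 5, 9.15% (344 of 3761) with both held to 10 and 11.2% (341 of 3050) with siCHD3 alone held to 10. A siNC peak lay under 3321 siCHD3-specific peaks (23.9%, interval 23.2 to 24.6) and under 8624 siCHD5-specific peaks (78.7%, interval 77.9 to 79.5). Over all peaks the siNC shares were 67.4% in siCHD3 and 90.6% in siCHD5. As deposited, the siCHD5-specific set thus consisted mostly of control sites not called in siCHD3, and the siCHD3-specific set mostly of sites called in neither siCHD5 nor control. With both lists held to 10 the siNC shares were 68.7% for siCHD3 and 94.6% for siCHD5. Most shared peaks were control sites, with a siNC peak under 97.0% of those in siCHD3 and 96.9% of those in siCHD5. All 4 other lists held 11810 of 20419 shared siCHD3 peaks (57.8%) and 11839 of 20494 shared siCHD5 peaks (57.8%).

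The lists of the other 3 knockdowns differed in which specific peaks they held. The siCHD4 list held 31.2% of siCHD3-specific peaks (interval 30.4 to 31.9) and 34.4% of siCHD5-specific peaks (interval 33.5 to 35.3). The siMBD2 list held 8.74% of siCHD3-specific peaks (interval 8.28 to 9.22) and 48.7% of siCHD5-specific peaks (interval 47.8 to 49.6). The siMBD3 list held 14.7% (interval 14.1 to 15.3) and 41.8% (interval 40.9 to 42.8). Over all siCHD3 peaks the shares were 56.2% in siCHD4, 53.7% in siMBD2 and 53.1% in siMBD3. Over all siCHD5 peaks they were 59.8%, 71.9% and 66.2%, so each specific set lay below its own list. The gap between the sets was smallest in siCHD4 in the lists as deposited, and its direction depended on the processing. With both lists held to a −log10 q of 5 the siCHD4 shares were 59.8% of siCHD3-specific and 39.4% of siCHD5-specific peaks, and with both held to 10 they were 81.4% and 55.7%. The siCHD3 share was also the higher with only the counted list held to 10 (80% and 45.4%), with any peak within 1 kb counted as shared (36.3% and 34.7%) and with lists of equal length (37.0% and 34.5%). Among siCHD3-specific peaks found in exactly 1 other list, 1704 were in siCHD4, 652 in siNC, 293 in siMBD3 and 142 in siMBD2. For siCHD5-specific peaks the order was 1904 in siNC, 228 in siMBD2, 206 in siMBD3 and 135 in siCHD4. The number of peaks in each list, from 25358 in siCHD4 to 36270 in siNC, limits how many could be found there.

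**Figure D2:**
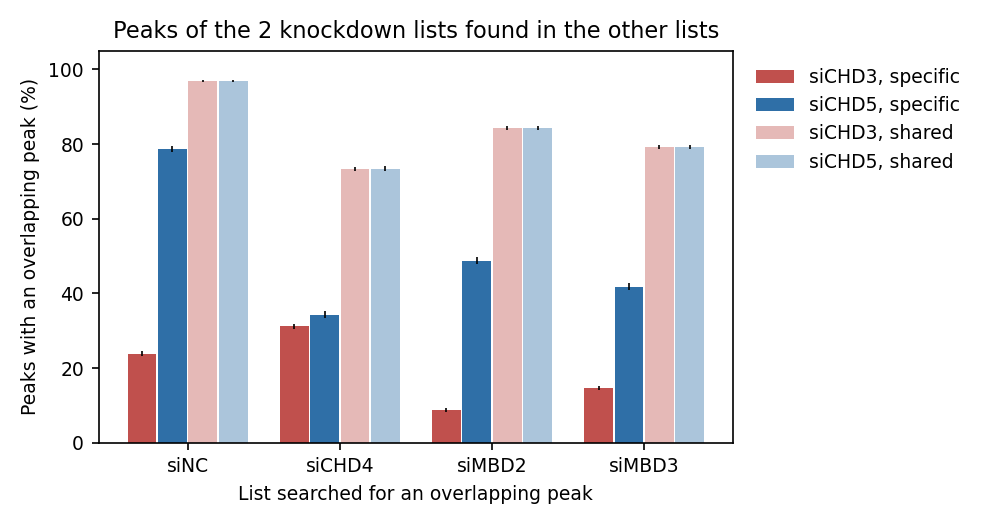
Share of specific (full colour) and shared (pale) peaks of the siCHD3 and siCHD5 lists that overlapped a peak of each other list, with exact 95% intervals as bars. In these lists as deposited, the widest gaps between the specific sets were in siNC (23.9% against 78.7%) and siMBD2 (8.74% against 48.7%), and the narrowest was in siCHD4 (31.2% against 34.4%), whose direction turned in 5 alternatives (81.4% against 55.7% with both lists held to a −log10 q of 10). Over all peaks of siCHD3 and siCHD5 the siNC shares were 67.4% and 90.6%, and the siMBD2 shares 53.7% and 71.9%.

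Set against each of the other 4 lists, siCHD5 peaks lacked a partner less often than siCHD3 peaks did. The share of siCHD3 peaks with no partner was 32.6% in siNC, 43.8% in siCHD4, 46.3% in siMBD2 and 46.9% in siMBD3, beside 40.5% in siCHD5. The share of siCHD5 peaks with no partner was 9.41% in siNC, 40.2% in siCHD4, 28.1% in siMBD2 and 33.8% in siMBD3, beside 34.8% in siCHD3. Read from the other side, 13.3% of siMBD2 peaks and 19.5% of siMBD3 peaks had no siCHD5 partner, against 28.8% and 28.6% with no siCHD3 partner. For siCHD4 the order turned with the side counted, since 26% of siCHD4 peaks had no siCHD5 partner and 22.7% had no siCHD3 partner.

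In the lists as deposited, the specific share was high at both ends of the siCHD3 list and at the weak end of the siCHD5 list. In siCHD5 the specific share fell with each step in fold, from 55.3% of the weakest 10% (interval 53.5 to 57.0) to 15.4% of the strongest 10% (interval 14.2 to 16.7). In siCHD3 it fell from 81.5% of the weakest 10% (interval 80.2 to 82.8) to 18.9% in the sixth decile (interval 17.6 to 20.3), then rose again to 48.1% of the strongest 10% (interval 46.4 to 49.8). With both lists held to a −log10 q of 10, the strongest 10% were specific in 62.8% of siCHD3 and 42.0% of siCHD5 peaks, and with only the counted list held to 10 in 33.7% and 14.2%. Calls and folds come from the same reads, so these shares describe the lists and are no independent evidence. The weak and the strong siCHD3-specific peaks differed in recurrence. Of the 2798 in the weakest 10%, 5.11% had a siNC peak and 6.22% a siCHD4 peak, and 2446 were in none of the 4 other lists. Of the 1651 in the strongest 10%, 76.3% had a siNC peak and 93.0% a siCHD4 peak, against 56.2% in siMBD3 and 29.5% in siMBD2, and 62 were in none. Over all siCHD3 peaks the shares were 67.4% in siNC, 56.2% in siCHD4, 53.1% in siMBD3 and 53.7% in siMBD2, and 24.0% were in none. In the strongest 10% of siCHD5, the 485 specific peaks had a siNC peak in 98.6%, a siMBD2 peak in 79.8%, a siMBD3 peak in 68.5% and a siCHD4 peak in 60.4%. Over all siCHD5 peaks these shares were 90.6%, 71.9%, 66.2% and 59.8%, so those in siMBD3 and siCHD4 were close to the whole list.

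**Figure D3:**
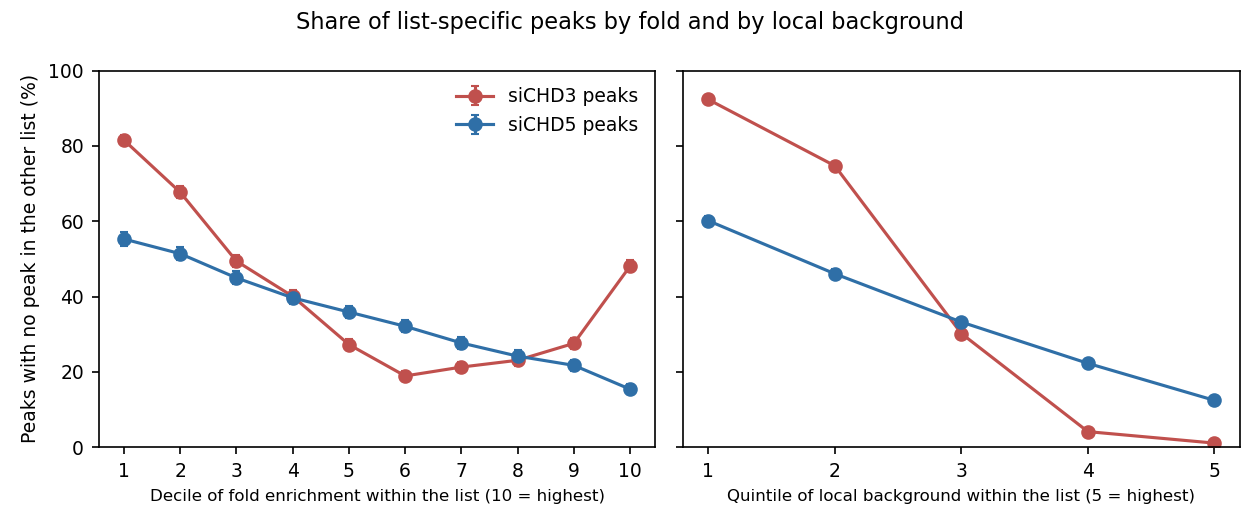
Share of peaks with no peak in the other list (vertical axis, percent, exact 95% intervals) against the decile of fold enrichment (left) and the quintile of local background (right) within each list. The siCHD3 curve by fold is U-shaped (81.5%, 18.9%, 48.1%), the siCHD5 curve falls from 55.3% to 15.4%, and by background siCHD3 runs from 92.3% to 1.12%.

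In 20% groups by local background, the specific share of siCHD3 peaks spanned a wider range than in 10% groups by fold. Background was solved from the fold and p of the same calls, so at a given fold a low background means a low pileup. Ordered by local background, 92.3% of the lowest 20% of siCHD3 peaks were specific (interval 91.7 to 92.9), 30.2% of the middle 20% and 1.12% of the highest 20% (interval 0.886 to 1.40). The siCHD5 list ran the same way over a smaller range, from 60.1% (interval 58.9 to 61.3) to 12.5% (interval 11.7 to 13.3). The median background under siCHD3-specific peaks was 0.533, near the smallest value of the list, and 1.94 under shared ones. A background within 1% of the smallest value was seen for 4393 siCHD3-specific peaks (31.6%) and for 314 shared ones (1.54%). In siCHD5 the medians were 4.27 and 7.11. Median summit pileups were 8 fragments for siCHD3-specific peaks and 20 for shared ones, and 30 and 57 in siCHD5. The median siCHD3-specific call thus rested on 8 fragments at its summit, pooled over 3 replicates.

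Width moved in opposite directions. The siCHD3-specific peaks were wider than shared ones, with a median of 294 bp (quartiles 232 and 435) against 274 bp (234 and 327). The siCHD5-specific peaks were narrower, with a median of 260 bp (222 and 309) against 321 bp (272 and 371). Peaks over 400 bp made up 28.6% of siCHD3-specific and 10.4% of siCHD3 shared peaks, but 3.63% of siCHD5-specific and 14.7% of siCHD5 shared peaks. Of the 1843 siCHD3 peaks from 601 to 999 bp, 73.0% were specific, and of the 274 such siCHD5 peaks 4.74% (interval 2.55 to 7.98). Several summits were recorded in 6.71% of siCHD3-specific and 3.07% of siCHD3 shared peaks, and in 0.538% and 1.77% of those in siCHD5.

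Sites called in every list but 1 formed contrasting classes in the 2 lists. All 4 other lists held 12250 of 34319 siCHD3 peaks (35.7%) and 13613 of 31451 siCHD5 peaks (43.3%), shared or specific. A group of 440 siCHD3 peaks, 3.17% of the specific ones, was called in siNC, siCHD4, siMBD2 and siMBD3 and lacked only a siCHD5 peak. They were strong in siCHD3, with a median fold of 17.8 (quartiles 11.6 and 23.1), and 339 of them (77.0%) were in the strongest 10% of the list. Their median width was 586 bp, 153 (34.8%) had several summits, and 24 had a siCHD5 peak within 1 kb. In the control list, the same sites were ordinary: median siNC fold 5.10, at the 47.3 percentile of that list. The converse group, called everywhere but in siCHD3, held 1774 siCHD5 peaks, 16.2% of the specific ones. Their median fold of 7.03 (quartiles 5.67 and 8.77) lay at the 57.9 percentile of the siCHD5 list, 187 (10.5%) were in its strongest 10%, and 60 had a siCHD3 peak within 1 kb. Their median siNC fold was 5.56, at the 58.1 percentile. Over all control sites under specific peaks, the median siNC fold was 4.20 for siCHD3-specific and 4.98 for siCHD5-specific peaks, against 5.75 under shared peaks of either list.

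**Figure D4:**
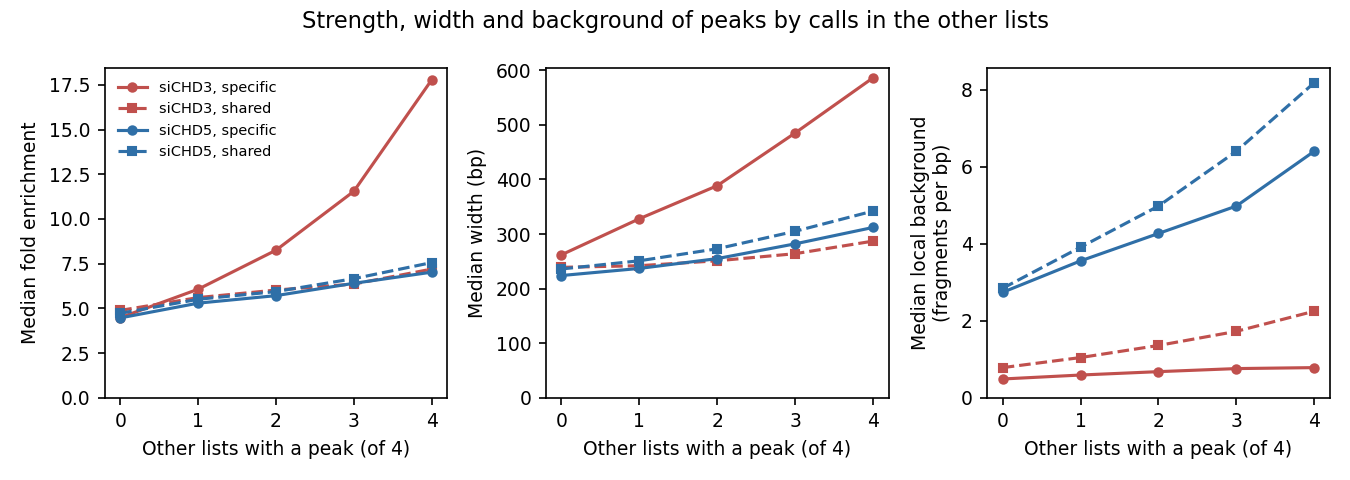
Median fold enrichment, width (bp) and local background (fragments per bp) of specific (solid) and shared (dashed) peaks, against the number of the 4 other lists with an overlapping peak. For siCHD3-specific peaks the median fold runs from 4.48 to 17.8 and the width from 262 to 586 bp, while the background stays between 0.489 and 0.785.

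Along this series of classes the siCHD3-specific peaks changed most. With 0, 1, 2, 3 and 4 other lists holding the site, their median fold was 4.48, 6.07, 8.25, 11.5 and 17.8. For siCHD5-specific peaks it was 4.47, 5.29, 5.71, 6.40 and 7.03, and shared peaks in siCHD3 went from 4.89 to 7.20. By combination of lists, the median fold of siCHD3-specific peaks was 6.52 to 17.8 wherever siCHD4 was among them and 4.48 to 6.14 wherever it was not. The 905 found in siNC and siCHD4 only had a median fold of 9.52 and a width of 485 bp, and the 684 found in siNC, siCHD4 and siMBD3 had 13.1 and 570 bp. Without a siCHD4 peak, the 100 found in siNC, siMBD2 and siMBD3 had 5.95 and 251 bp. The siCHD4 list was also the one with the most peaks over 1 kb after siCHD3, 353 of 25358 (1.39%). Whether peak width bears on these overlaps was not tested. With peaks over 1 kb left out, 13327 siCHD3-specific peaks remained, 21.9% of them with a siNC peak.

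The strongest siCHD3-specific sites with a control peak, and with no siCHD5 peak within 1 kb, were called in all 4 other lists. On chromosome 19 from 22551412 to 22551789 the fold was 47.8 in siCHD3, 20.4 in siCHD4, 10.4 in siNC, 9.46 in siMBD3 and 8.06 in siMBD2, over a siCHD3 pileup of 68 fragments. On chromosome 6 from 32943816 to 32944983 it was 45.1 in siCHD3 and 9.59 in siNC. The other 3 lay on chromosome 4, at 174253962 to 174254739 (fold 41.7), 46725772 to 46726430 (40.7) and 110268273 to 110268598 (39.3). Folds rank peaks within a list and are not a measure of change between lists.

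Without a control peak within 1 kb, siCHD3-specific sites were led by chromosome 10 from 74677264 to 74677913, with a fold of 58.0 and 139 fragments at the summit. It recurred in siCHD4 (fold 15.5) and siMBD3 (10.9). The site on chromosome 20 from 34319854 to 34320069 (fold 50.4, also 139 fragments) recurred in siCHD4 alone (16.4), as did chromosome 22 from 20114485 to 20114843 (26.3 and 9.79). Chromosome 5 from 126478905 to 126479532 (fold 35.7) was called in siCHD4 (13.4), siMBD2 (6.14) and siMBD3 (5.25). The fifth, on chromosome 1 from 43148095 to 43148341, had a fold of 25.2 from 44 fragments and was called in no other list.

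The strongest siCHD5-specific sites with a control peak reached lower folds. They were led by chromosome 5 from 39217869 to 39218257, with a fold of 25.05 in siCHD5, 7.73 in siMBD2, 7.38 in siMBD3, 6.72 in siNC and 4.08 in siCHD4. Chromosome 8 from 2027618 to 2028033 (fold 20.6) was also called in siNC (5.06), siMBD2 (5.72) and siMBD3 (10.5), but not in siCHD4. The remaining 3 were called in all 4 other lists and reached folds of 19.8 (chromosome 1, 30170802 to 30171202), 19.8 (chromosome 13, 27272826 to 27273162) and 19.5 (chromosome 9, 71642509 to 71642930). By the way they were chosen, none of the 5 had a siCHD3 peak within 1 kb. Without a control peak within 1 kb, the highest siCHD5-specific fold was 12.0, on chromosome 1 from 54277280 to 54277612, a site also called in siMBD2 (7.34). Next came chromosome 6 from 133513027 to 133513328 (10.9), called in siCHD4 and siMBD3 too. A pair of sites with a fold of 10.8, at 48560435 to 48560686 of chromosome 16 and 12500055 to 12500263 of chromosome 8, was called in siCHD5 alone.

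Among shared peaks, the best mean rank was held by chromosome 20 from 55176699 to 55177153, the highest fold of the siCHD3 list (207) and 22.5 in siCHD5, with summits 22 bp apart. It was followed by chromosome 8 from 62114812 to 62115330 (fold 140 in siCHD3 and 21.8 in siCHD5) and by chromosome 2 from 139045369 to 139046451 (119 and 20.1). All 10 leading shared sites were called in the other 4 lists as well, with siCHD4 folds from 32.6 to 81.7 and siNC folds from 13.7 to 26.1. Other shared sites stood at opposite ends of the 2 lists. On chromosome 12 from 12263913 to 12264619 the fold was 92.2 in siCHD3, the 99.8 percentile, and 2.83 in siCHD5, the 0.987 percentile, with siNC at 17.0. On chromosome 10 from 43881446 to 43883299 a siCHD3 peak of 1854 bp (fold 71.4) overlapped a siCHD5 peak of 195 bp (fold 2.79) with its summit 762 bp away, and the strongest siCHD5 peak under it had a fold of 4.68. The reverse held on chromosome 4 from 68154644 to 68154936, with a fold of 3.28 in siCHD3 (0.756 percentile) and 11.5 in siCHD5 (93.9 percentile). On the same chromosome from 137558559 to 137558777 the folds were 3.57 and 15.6, with 5 fragments at the siCHD3 summit.

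Specific peaks of siCHD3 also came in longer uninterrupted runs. Runs of 3 or more consecutive siCHD3-specific peaks, with no siCHD5 peak between them, numbered 1395 and held 5404 peaks (38.9% of the specific ones). In siCHD5 they numbered 608 and held 2075 peaks (18.9%). The longest run in siCHD3 was 14 peaks in 21.5 kb, on chromosome 1 from 228744759 to 228766237, of which 2 had a siNC peak and 5 were in no other list. The next were 11 peaks on chromosome 17 from 1533373 to 1588162, 6 with a siNC peak, and 10 peaks on chromosome 1 from 161412833 to 161439364, 1 with a siNC peak. In siCHD5, 8 peaks on chromosome 16 from 46401968 to 46420527 and 8 from 35143427 to 46398374 formed the longest runs, and 7 and 8 of these had a siNC peak. The second of them spans 11254.9 kb in which neither list held another peak. How much of that span reads can be mapped to was not examined. A run of 7 siCHD5-specific peaks lay on chromosome 1 from 145339225 to 145366255. Longer runs are easier to form in the list with more specific peaks, and this was not tested.

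The lists also differed in where along the genome their specific peaks fell. By the number of merged regions of both lists within 500 kb, the specific share of siCHD3 peaks went from 35.3% in the sparsest 20% (interval 34.2 to 36.5) to 45.3% in the densest 20% (interval 44.1 to 46.5). That of siCHD5 peaks went the other way, from 41.9% (interval 40.7 to 43.2) to 28.3% (interval 27.1 to 29.4). The regions counted include those held by 1 list only, so neighbouring specific peaks add to the density they are set against. These trends are therefore not independent of the measure. By chromosome, siCHD5 peaks were most often specific on chromosomes 18 (47.0%, interval 42.8 to 51.3), 4 (41.4%), 13 (41.2%) and 21 (40.2%). They were least often so on chromosomes 19 (26.8%, interval 24.2 to 29.6), 1 (29.5%), 22 (29.5%) and 17 (30.3%). The siCHD3 list varied less, from 37.2% on chromosome 10 (interval 34.8 to 39.7) to 47.2% on chromosome 16 (interval 44.3 to 50.1). Chromosomes 18 (44.7%), 5 (43.0%) and 17 (43.0%) followed chromosome 16, and chromosomes 7 (38.1%), 6 (38.2%) and 1 (38.5%) stood just above chromosome 10. On chromosome 19 the specific shares were 42.5% in siCHD3 and 26.8% in siCHD5, while on chromosome 18 they were 44.7% and 47.0%, with overlapping intervals.

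**Figure D5:**
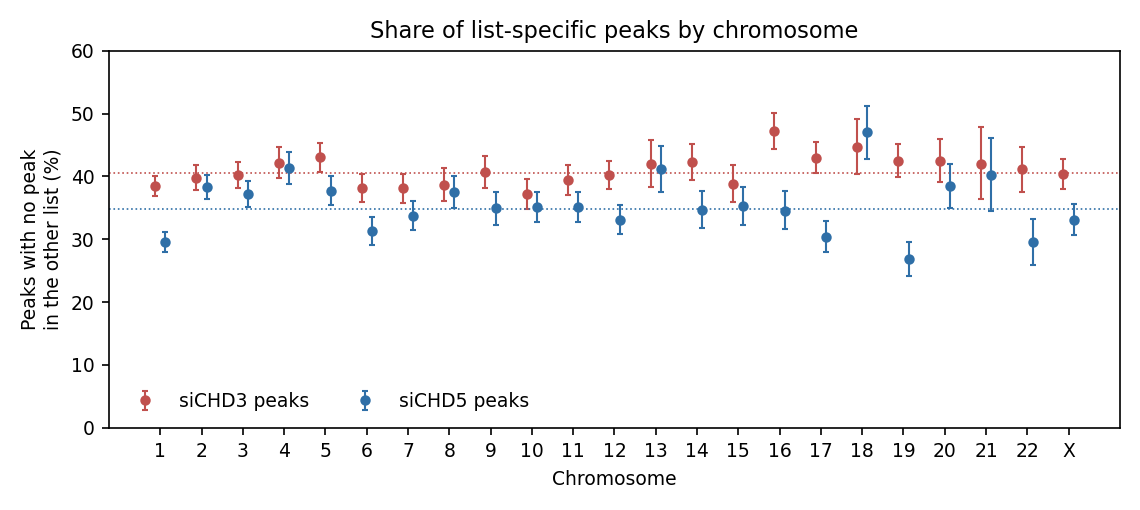
Share of siCHD3 and of siCHD5 peaks with no peak in the other list (vertical axis, percent) by chromosome, with exact 95% intervals, and the share over all chromosomes as dotted lines. The siCHD5 shares spread from 26.8% (chromosome 19) to 47.0% (chromosome 18), and the siCHD3 shares from 37.2% (chromosome 10) to 47.2% (chromosome 16).

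The coverage of siCHD3 was set beside the siCHD5-specific peaks. Each siCHD5 summit pileup was thinned to the siCHD3 coverage and the chance that it would still pass the smallest −log10 p of the siCHD3 list (3.61) was computed. By this measure 6164 siCHD5 peaks (19.6%) were expected below that level, and 10957 (34.8%) had no siCHD3 peak. In the weakest 10% by fold the expected share was 65.2% and the observed one 55.3%. In the strongest 10% the expected share was 0.656% and the observed one 15.4%. Of the 1774 siCHD5-specific peaks called in all 4 other lists, 181 were expected below that level. This calculation takes counting noise alone into account. It takes each siCHD5 pileup as measured, though a high pileup is what brings a peak into the list. It also uses the weakest p of the siCHD3 list. Both tend to lower the expected shares, although in the weakest 10% the expected share was the higher. The gaps to the observed shares thus ran in both directions and cannot tell coverage from knockdown. The siCHD3-specific peaks were absent from the list of higher coverage, and no such calculation was made for them.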

How the data were processed

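The data were 6 peak lists, 1 per condition, in the MACS2 narrow-peak layout. The build was hg19, per the submitters' processing notes, which name MACS2 2.1.2, deepTools 3.5.0, Bowtie2 2.3.4, FastQC 0.11.7, SAMtools 1.9 and bedtools 2.25.0 without their order. Tool settings are not given in the sources used here. In the deposited files, the peak names give replicates 1 to 3 as called together. Each peak carries the authors' fold enrichment, a linear ratio to local background. The summit offset and the −log10 values of p and q were also used as deposited. The deposited display score was not used. The smallest deposited −log10 q was 1.30 in siCHD3 and 1.31 in siCHD5.

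Lines sharing chromosome, start and end were taken as 1 peak, represented by its summit with the largest fold. Overlaps of 1 bp were computed with Python 3.11.15, numpy 2.4.6, scipy 1.17.1 and pandas 2.3.3, and bedtools 2.31.1 gave the same counts of specific peaks. Pileup and background were solved together from the fold, taken as their ratio after adding 1 to each, and from p, taken as the Poisson probability above the pileup. A whole pileup matched the deposited −log10 p within 0.01% for 100% of peaks in siCHD3, siCHD5 and siNC, and for at most 1.97% of peaks in them when p was shuffled. Overlap counting, this solution and the thinning were checked on simulated data. Read counts per sample were not used, so depth was read from background coverage. Named regions are, per list and by fold, the 5 strongest specific peaks with and the 5 without a control peak, with none of the other list within 1 kb. They also include the 10 shared pairs of best mean percentile, the 5 pairs differing most in percentile each way, the 3 longest runs, the 3 peaks spanning most peaks and the 4 highest and 4 lowest chromosomes, and the leading ones are printed. Members, classes and alternatives were chosen with earlier results of these data known. The alternatives were other thresholds, overlap rules, list lengths, a width limit, all contigs, merged regions and a weight for coverage. Positions are 1-based hg19. A genome and gene annotation of hg19 were not used here, so genes, promoters, CTCF motifs and region sequences are not given.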

Additional observations from a re-analysis of the deposited data

Results flagged for a closer look

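Peaks outside chromosomes 1 to 22 and X entered none of the comparisons. Several classes of contig held more peaks in a knockdown list than in the control list, both in number and as a share of all peaks. The siCHD3 list held 779 peaks on alternative haplotype contigs, against 354 in siCHD5 and 365 in siNC. On unplaced and random contigs siCHD3 and siCHD5 each held 207 peaks and siNC held 187. The siCHD3 list held 43 peaks on chromosome Y, against 25 in siCHD5 and 33 in siNC, and 8 on the mitochondrial genome, where siCHD5 and siNC had 0. These differences have no replicate check and were not tested. Whether the reads under these peaks also fit elsewhere in the genome was not examined.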

How the results depend on the processing

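No paired analysis was possible because the lists pool replicates 1 to 3 of each condition, and for the same reason no replicate could be left out. Of the recomputed values of the 4 main results, 24 stayed within 1.5 times the count, or inside the 95% interval of the share, and 17 did not. The siCHD3-specific count (13900) was 6395 when both lists were held to a −log10 q of 5, 3761 when both were held to 10 and 3050 when siCHD3 alone was held to 10. The siCHD5-specific count (10957) was 6984 when siCHD5 alone was held to 10. It rose to 12006 at 5 and 14983 at 10 in both lists, so siCHD5 then held more specific peaks than siCHD3. Raising the threshold in both lists also removes partners. Weighting each peak by its probability of passing at siCHD3 coverage left 7366 of 25287 siCHD5 peaks specific (29.1%). Lists of equal length gave 11304 and 11227. The share of siCHD3-specific peaks with a siNC peak (23.9%) was 47.5% at 5 in both, 68.7% at 10 in both, 62.6% at 10 in siCHD3 only, 20.2% with reciprocal overlap of 50%, 20.8% with summits within 100 bp, 27.4% within 1 kb, 28.4% with lists of equal length and 21.9% without peaks over 1 kb. The share of siCHD5-specific peaks with a siNC peak (78.7%) was 85.4%, 94.6% and 91.5% at those 3 thresholds, 76.7% with reciprocal overlap and 76.9% by summits. It was higher than the siCHD3 share in each alternative computed. The causes of these shifts were not tested. The 440 sites lacking only siCHD5 ranged from 339 (summits within 100 bp) to 786 (10 in both lists). The 1774 lacking only siCHD3 ranged from 1684 (10 in siCHD5 only) to 5221 (10 in both). Without peaks over 1 kb, 9 of the 10 named siCHD3-specific regions were left. The median pileup was 15 fragments in siCHD3 and 46 in siCHD5.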
